A study of Homo sapiens with 15 samples.

Results

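The interferon regulatory factors (IRFs) are transcription factors that share a helix-turn-helix DNA-binding domain and turn the sensing of viral nucleic acids or of interferon into transcription. The genes IRF1, IRF2, IRF3, IRF5, IRF7, IRF8 and IRF9 were picked by symbol, as 7 of the 25503 genes in the expression table, and all 7 symbols were present. RNA was sequenced from 15 libraries of 2 established human pancreatic ductal adenocarcinoma lines: AsPC-1, raised from ascites, and Capan-1, raised from a liver metastasis. AsPC-1 cells were transfected with small interfering RNA against B4GALT5 (siB4GALT5), with small interfering RNA against B3GNT3 (siB3GNT3) or with a control sequence (siNC), and Capan-1 cells with siB3GNT3 or siNC. Each of the 5 groups had 3 libraries, and every group, controls included, received a small RNA by transfection. The B4GALT5 enzyme adds galactose in the Golgi, among others to glucosylceramide, and the B3GNT3 enzyme adds N-acetylglucosamine to O-linked sugar chains. The sequences, amounts and durations of the small RNAs are not given in the sources used here, so each knockdown stands for whatever 1 reagent or pool did. Nothing in the labels says that replicates were separate cultures, and the p-values then measure only the spread between these libraries, which may be technical.

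The levels are FPKM, fragments per length of transcript and size of library, as the authors deposited them. B4GALT5 stood at 8.41 ± 0.343 FPKM in AsPC-1 siB4GALT5 libraries, against 36.7 ± 1.74 FPKM in AsPC-1 siNC libraries (SD, n = 3 each). B3GNT3 stood at 2.53 and 2.50 FPKM in replicates 1 and 2 of AsPC-1 siB3GNT3, against 22.5, 23.8 and 23.3 FPKM in AsPC-1 siNC. The library labelled AsPC-1 siB3GNT3 replicate 3 held 24.2 FPKM of B3GNT3, so its target was not reduced. Over all genes its root-mean-square difference was 0.141 to 0.150 on the log2(FPKM + 1) scale from the 3 siNC libraries and 0.453 to 0.465 from the other siB3GNT3 libraries. It was set apart in the main comparisons, which leaves 14 libraries, and the siB3GNT3 tests of the members in AsPC-1 are also given with it. Since the siB3GNT3 libraries were kept for a low target, p-values in that group describe the kept libraries. B3GNT3 was 1.61 ± 0.264 FPKM in Capan-1 siB3GNT3 and 13.4 ± 0.253 FPKM in Capan-1 siNC (SD, n = 3 each). The 15 libraries had 10339 to 11531 genes at 1 FPKM or more. Mitochondrially encoded genes took 18.1% to 19.5% of the summed FPKM in AsPC-1 siB4GALT5, 19.7% to 20.1% in the kept AsPC-1 siB3GNT3 libraries and 23.8% to 24.8% in AsPC-1 siNC. Their share was 13.6% to 14.4% in Capan-1 siB3GNT3 and 14.3% to 14.8% in Capan-1 siNC. The ranges of this share were apart between knockdowns and siNC in AsPC-1 and overlapped in Capan-1, and its part in the results was not tested. Of 8 ductal epithelial markers, 6 averaged at least 1 FPKM in AsPC-1, where CDH1 and KRT7 did not, and all 8 did in Capan-1. Their summed level was 1965 to 1980 FPKM in AsPC-1 siB4GALT5, 1669 to 1680 FPKM in the kept AsPC-1 siB3GNT3 libraries and 2039 to 2095 FPKM in AsPC-1 siNC, and it was 3114 to 3964 FPKM in Capan-1 siB3GNT3 and 4847 to 5082 FPKM in Capan-1 siNC. In AsPC-1 the single markers moved both ways. There KRT8 and KRT19 differed by -0.52 and -0.47 on the log2 scale after siB4GALT5, and by -0.44 and -0.91 after siB3GNT3. KRT18, EPCAM, MUC1 and SOX9 differed by 0.52, 0.52, 0.47 and 0.86 after siB4GALT5, and by 0.17, 0.50, 0.36 and 0.74 after siB3GNT3. In Capan-1 5 of the 8 were called lower after siB3GNT3 and 1 higher, against 14.2% and 18.7% of all genes. KRT8, KRT18, KRT19, EPCAM and SOX9 differed by -0.35, -0.61, -0.60, -0.19 and -0.65 there, and CDH1 by 0.40. The pan-leukocyte marker PTPRC stayed at or below 0.160 FPKM in every library. Among 9 leukocyte markers CD68, a lysosomal protein, alone averaged over 1 FPKM in AsPC-1, and the summed leukocyte list was 48.6 to 51.6 FPKM in AsPC-1 siB4GALT5, 51.8 to 52.5 FPKM in siB3GNT3 and 39.1 to 40.7 FPKM in siNC. It was 176 to 218 FPKM in Capan-1 siB3GNT3 and 163 to 177 FPKM in Capan-1 siNC. There CD14, a monocyte marker, averaged 4.84 ± 0.634 FPKM after siB3GNT3 and 2.85 ± 0.166 FPKM after siNC (SD, n = 3 each) and rose by 0.60 (limma adjusted p = 0.00339). LYZ, of the same list, went the other way in Capan-1, from 2.39 ± 0.488 FPKM after siNC to 1.42 ± 0.184 FPKM after siB3GNT3 (SD, n = 3 each). LYZ fell by 0.48 there (limma adjusted p = 0.017), and CD68 was not called in Capan-1 at 0.21 (limma adjusted p = 0.0922). In AsPC-1 CD68 rose by 0.32 after siB4GALT5 (limma adjusted p = 0.000361) and by 0.38 after siB3GNT3 (limma adjusted p = 0.000313). The sum of 6 fibroblast markers was 70.1 to 91.1 FPKM in AsPC-1 siB4GALT5, 81.7 to 86.5 FPKM in AsPC-1 siB3GNT3 and 80.3 to 92.3 FPKM in AsPC-1 siNC, and it was 80.0 to 85.7 FPKM in Capan-1 siB3GNT3 and 57.4 to 63.2 FPKM in Capan-1 siNC. In AsPC-1 LUM was the only 1 of the 6 that averaged at least 1 FPKM. LUM averaged 81.6 FPKM in AsPC-1 siB4GALT5, 83.8 FPKM in AsPC-1 siB3GNT3 and 85.6 FPKM in AsPC-1 siNC, nearly all of the sum. In Capan-1 the collagen gene COL1A1 averaged 75.7 ± 2.32 FPKM after siB3GNT3 and 49.95 ± 3.44 FPKM after siNC (SD, n = 3 each) and rose by 0.59 (limma adjusted p = 0.000833), while LUM, a matrix proteoglycan, fell by 0.63 (limma adjusted p = 0.000735). PDGFRB averaged 1.49 ± 0.563 FPKM in Capan-1 siB3GNT3 and 0.739 ± 0.226 FPKM in Capan-1 siNC (SD, n = 3 each), and did not enter the test. COL1A2, DCN and PDGFRA stayed at or below 0.195, 0.0287 and 0.0183 FPKM in every library. The part of these markers in the results was not tested. In bulk RNA a change in the number of cells of a kind and a change in RNA per cell cannot be told apart.

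The family splits by role. IRF3 is made at all times, waits in the cytoplasm, and is phosphorylated by the kinases TBK1 and IKKε once RNA or DNA sensors fire. It then drives the first interferon genes. Secreted interferon acts back through JAK and TYK kinases on STAT proteins, which join IRF9 to form the complex ISGF3. ISGF3 binds the interferon-stimulated response element (ISRE) of many genes, IRF7 among them, and IRF7 then broadens interferon transcription. IRF1 is induced quickly by interferon γ through JAK-STAT signalling and by NF-kB and activates antigen-presentation and growth-restraining genes, while IRF2 binds the same element and restrains much of what IRF1 activates. IRF5 and IRF8 are best known from immune cells.

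Promoter sequences are shown for IRF1 and IRF9, the called members with an entry in the RefSeq promoter table (GRCh38.p14), because the signals that raise the first are usually traced to a STAT site and an NF-kB site close to its start. Each sequence runs 5′ to 3′ on the gene's strand over 250 bases before and 50 bases after the start, with capitals for motif matches. The IRF1 window is chr5:132490724-132491023 on the minus strand. The IRF9 window is chr14:24161015-24161314 on the plus strand.
IRF1: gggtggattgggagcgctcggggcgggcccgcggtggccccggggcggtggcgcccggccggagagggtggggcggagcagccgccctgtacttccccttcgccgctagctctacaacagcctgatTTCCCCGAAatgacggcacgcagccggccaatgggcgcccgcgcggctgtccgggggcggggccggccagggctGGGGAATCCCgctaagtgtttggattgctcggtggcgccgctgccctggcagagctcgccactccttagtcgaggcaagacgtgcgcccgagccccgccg
IRF9: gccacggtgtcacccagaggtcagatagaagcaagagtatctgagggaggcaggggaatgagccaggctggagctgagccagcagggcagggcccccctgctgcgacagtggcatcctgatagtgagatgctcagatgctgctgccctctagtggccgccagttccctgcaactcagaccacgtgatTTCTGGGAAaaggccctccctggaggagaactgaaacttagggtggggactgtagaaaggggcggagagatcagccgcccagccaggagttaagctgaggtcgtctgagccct
In the IRF1 window the first capitals are a STAT-type GAS motif (TTCNNNGAA, which reads the same form on both strands) 124 bases before the start, and the second are an NF-kB consensus 50 bases before it. The IRF9 window holds 1 GAS match, 63 bases before the start. The ISRE letters TTTCNNTTTC occurred on neither strand of either window. Among 35116 promoter windows of this length, 7.66% hold the GAS letters, 11.3% the NF-kB consensus and 3.57% the ISRE letters. The motifs do not overlap each other here. A match is a description of letters and not evidence of binding, and these data hold no binding measurement. The table also matched IRF5 and IRF8, whose windows held none of the 3 motifs, so that 4 of the 7 genes matched. IRF2, IRF3 and IRF7 are named only.

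**Figure D1:**
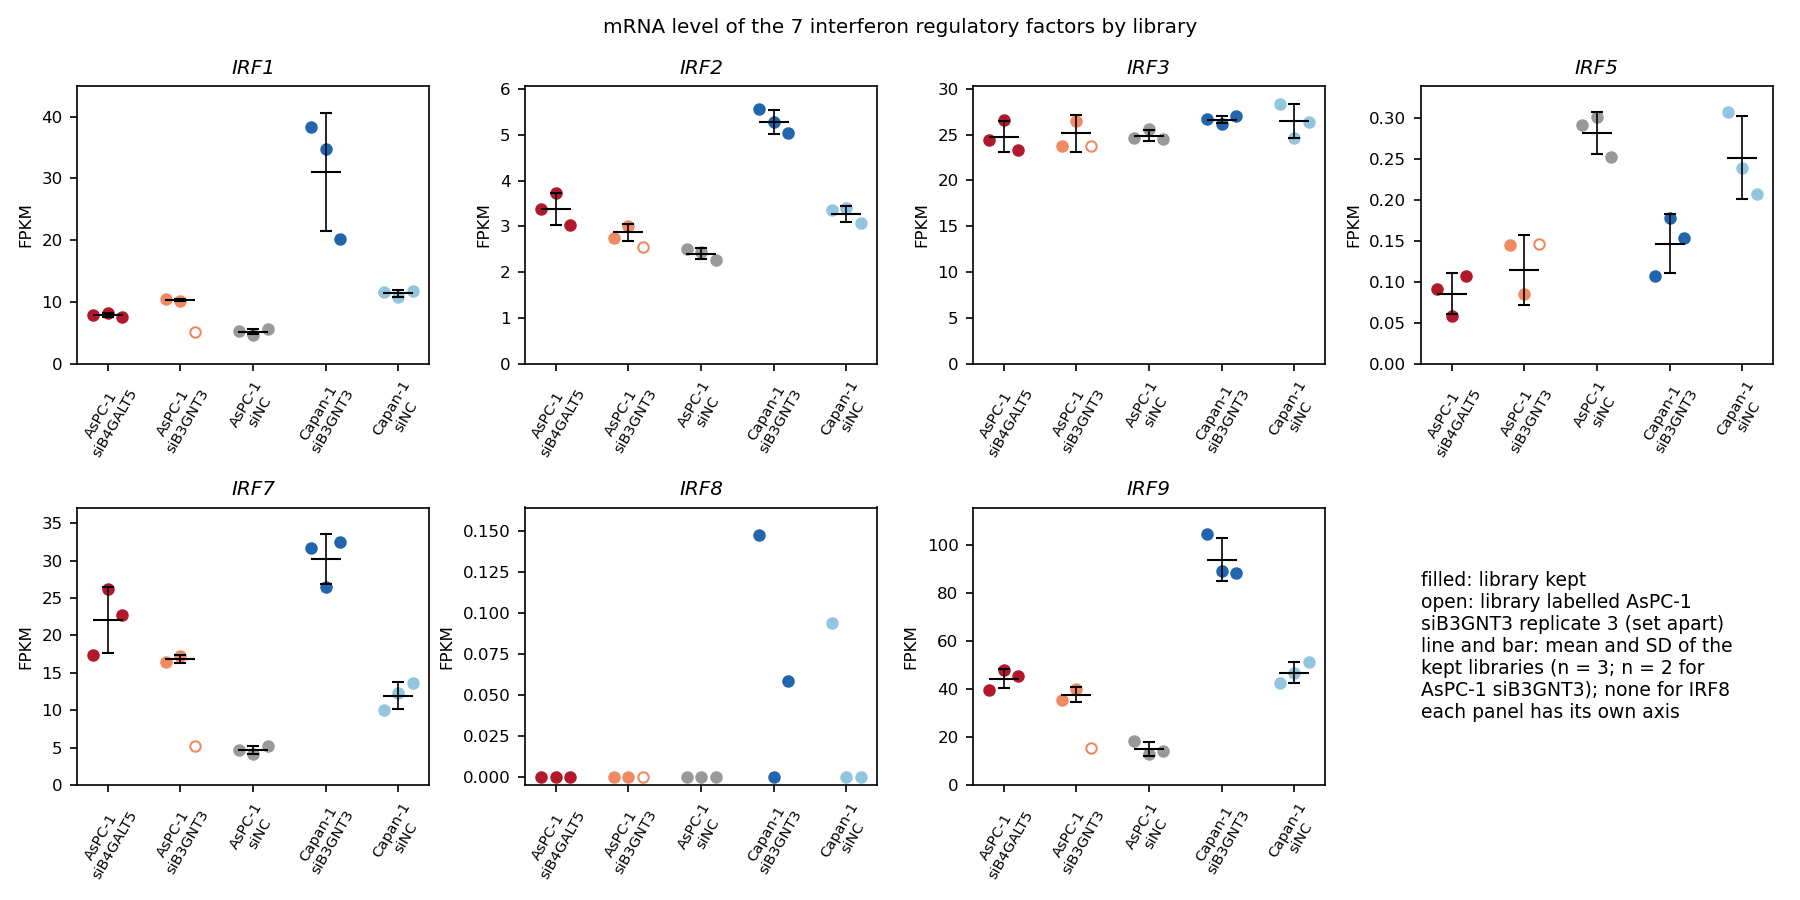
FPKM of the 7 members in each library, with 1 panel per gene and its own axis. Points are libraries in the groups named below the axis, filled if kept and open for the library set apart, and lines with bars are mean and SD of the kept libraries. IRF7 sits at 17.4 to 26.2 FPKM in AsPC-1 siB4GALT5 and 4.15 to 5.20 FPKM in AsPC-1 siNC, while IRF3 stays between 23.3 and 28.3 FPKM in all 15 libraries.

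Of the 7 genes, IRF1, IRF2, IRF3, IRF7 and IRF9 were at 1 FPKM or more in all 15 libraries and entered the tests, and IRF5 and IRF8 were below 1 FPKM in every library. Differences were tested with limma on log2(FPKM + 1) over all genes passing a filter of 1 FPKM in at least 3 libraries of the fit. Calls were made at a Benjamini-Hochberg adjusted p under 0.05. After siB4GALT5 in AsPC-1, IRF1, IRF2, IRF7 and IRF9 rose and IRF3 was not called. In that comparison 35.2% of 10775 genes were called higher and 23.0% lower, so a call in itself was common. After siB3GNT3 in AsPC-1, IRF1, IRF7 and IRF9 rose, against 32.5% of genes called higher and 20.4% lower. After siB3GNT3 in Capan-1, IRF1, IRF2, IRF7 and IRF9 rose, against 18.7% of 11493 genes called higher and 14.2% lower. No tested member was called lower in any of the 3 comparisons. The balance of calls over all genes moved with the scaling: higher calls made up 60.5% of the calls after siB4GALT5 as deposited, 49.1% after median-ratio scaling and 70.9% after scaling to a common sum. For siB3GNT3 in AsPC-1 they made up 61.5%, 46.7% and 72.2% under the same 3 scalings, and for Capan-1 56.8%, 46.1% and 63.6%. With all 3 AsPC-1 siB3GNT3 libraries as labelled, 0 of 10804 genes (0%) were called by limma for siB3GNT3 in AsPC-1, with 3011 genes at an unadjusted p under 0.05, and the members' count was 0. No siB3GNT3 call in AsPC-1 given here, of a member or of a listed gene, therefore held with that library. The comparisons within AsPC-1 share their siNC libraries.

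IRF3, the standing sensor-driven factor, was the flattest member. It measured 24.4, 26.6 and 23.3 FPKM in AsPC-1 siB4GALT5, 23.7 and 26.5 FPKM in AsPC-1 siB3GNT3, and 24.6, 25.6 and 24.5 FPKM in AsPC-1 siNC. The library set apart held 23.8 FPKM. In Capan-1 it measured 26.7, 26.2 and 27.0 FPKM after siB3GNT3, against 28.3, 24.6 and 26.4 FPKM after siNC. The ranges of all 5 groups overlapped from each neighbour to the next in the order of their means. IRF3 differed by -0.01 (SE 0.07) on the log2 scale after siB4GALT5, with a limma adjusted p of 0.923 and an interval of -0.16 to 0.14. After siB3GNT3 the log2 difference was 0.01 (SE 0.07, interval -0.15 to 0.18, limma adjusted p = 0.906) in AsPC-1 and 0.01 (SE 0.07, interval -0.15 to 0.17, limma adjusted p = 0.912) in Capan-1. When the library set apart was included, the AsPC-1 siB3GNT3 value was -0.01 (limma adjusted p = 0.913). The sign of these small values turned with the scaling. Over the 14 libraries the SD of its log2(FPKM + 1) was 0.078, and 0.237% of 12236 genes had a smaller one. The corresponding share was 39.3% for IRF2, 88.0% for IRF1, 89.2% for IRF9 and 89.7% for IRF7. IRF3 shares 19.3% of its exonic bases with BCL2L12 on the opposite strand, and no source used here gives the strand setting of the counting, so reads of the overlap cannot be told apart. BCL2L12 measured 7.30 and 7.57 FPKM in AsPC-1 siB3GNT3, against 12.4, 11.7 and 10.3 FPKM in AsPC-1 siNC, and it fell by 0.56 on the log2 scale (SE 0.08, limma adjusted p = 0.000318). Including the library set apart, the BCL2L12 difference was -0.40 and not called (limma adjusted p = 0.168).

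**Figure D2:**
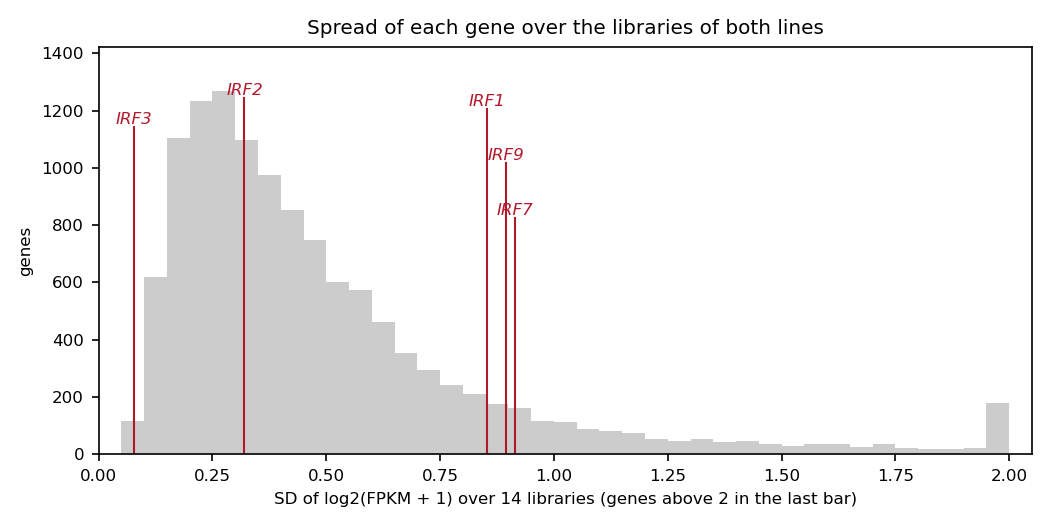
Distribution over 12236 genes of the SD of log2(FPKM + 1) across the 14 kept libraries of both lines (x axis, log2 units; y axis, number of genes). Red lines mark the 5 tested members: IRF3 lies at the far left at 0.078 and IRF7 farthest right of the 5 at 0.91.

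IRF7, the factor that amplifies interferon transcription, changed most of the 5 in AsPC-1. It measured 17.4, 26.2 and 22.7 FPKM in AsPC-1 siB4GALT5, against 4.76, 4.15 and 5.20 FPKM in AsPC-1 siNC. Every knockdown library lay above every control library, and IRF7 rose by 2.00 on the log2 scale (SE 0.13, limma adjusted p = 2.56e-06), rank 31 of 10775 genes from the top. In AsPC-1 siB3GNT3 it measured 16.5 and 17.2 FPKM, below all siB4GALT5 libraries and above all siNC libraries. It rose by 1.65 there (SE 0.15, limma adjusted p = 2.07e-05), rank 51. The library set apart held 5.22 FPKM, next to the siNC libraries. With that library included the siB3GNT3 difference was 1.14 (limma adjusted p = 0.168) and was not called. In Capan-1 IRF7 measured 31.7, 26.4 and 32.5 FPKM after siB3GNT3, against 9.99, 12.3 and 13.6 FPKM after siNC. The groups did not overlap, and it rose by 1.27 (SE 0.12, limma adjusted p = 0.00036), rank 49 of 11493 genes.

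IRF9, the DNA-binding subunit of ISGF3, was the most abundant member in 4 of the 5 groups. It measured 39.8, 47.8 and 45.7 FPKM in AsPC-1 siB4GALT5, against 18.4, 12.9 and 14.1 FPKM in AsPC-1 siNC. The groups were apart, and IRF9 rose by 1.51 (SE 0.12, limma adjusted p = 8.73e-06), rank 99. In AsPC-1 siB3GNT3 it measured 35.4 and 39.9 FPKM and rose by 1.27 (SE 0.13, limma adjusted p = 6.02e-05), rank 150. The library set apart held 15.6 FPKM, inside the siNC range, and with it the difference was 0.87 (limma adjusted p = 0.168). In Capan-1 it measured 104.6, 89.2 and 88.3 FPKM after siB3GNT3, against 42.5, 46.8 and 51.2 FPKM after siNC. It rose by 0.99 there (SE 0.09, limma adjusted p = 0.000343), rank 125. In GENCODE 29, 48.4% of the exonic bases of IRF9 are shared on the same strand with the gene AL136295.5. The expression table has no row of that name, so how the authors' counting treated those reads is not known.

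STAT2, which joins IRF9 in ISGF3, is given beside it. It measured 7.96, 10.7 and 9.82 FPKM in AsPC-1 siB4GALT5, against 6.55, 5.40 and 6.30 FPKM in AsPC-1 siNC, and rose by 0.56 (SE 0.10, limma adjusted p = 0.00134). In AsPC-1 siB3GNT3 STAT2 measured 6.23 and 6.55 FPKM, within the siNC range, with a difference of 0.06 (SE 0.12, limma adjusted p = 0.661), or 0.05 with the library set apart included (limma adjusted p = 0.752). In Capan-1 it measured 14.7, 14.8 and 14.3 FPKM after siB3GNT3, against 8.93, 9.94 and 9.79 FPKM after siNC. These groups did not overlap, and STAT2 rose by 0.57 (SE 0.07, limma adjusted p = 0.001). The ratio of IRF9 to STAT2, FPKM over FPKM, was 4.71 ± 0.268 in AsPC-1 siB4GALT5 (SD, n = 3), 5.89 ± 0.288 in AsPC-1 siB3GNT3 (SD, n = 2) and 2.48 ± 0.297 in AsPC-1 siNC (SD, n = 3). It was 6.43 ± 0.577 in Capan-1 siB3GNT3 and 4.90 ± 0.289 in Capan-1 siNC (SD, n = 3 each).

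IRF1, the interferon-γ and NF-kB responsive activator whose promoter is printed above, had its largest change in Capan-1. There it measured 38.3, 34.7 and 20.3 FPKM after siB3GNT3, against 11.6, 10.7 and 11.7 FPKM after siNC. All knockdown libraries were above the controls, with replicate 3 well below replicates 1 and 2. IRF1 rose by 1.33 (SE 0.20, limma adjusted p = 0.0025), rank 40 of 11493 genes, and by 1.60 without replicate 3. In AsPC-1 it measured 10.4 and 10.2 FPKM after siB3GNT3, 7.96, 8.14 and 7.48 FPKM after siB4GALT5 and 5.31, 4.70 and 5.57 FPKM after siNC. The 3 groups did not overlap. IRF1 rose by 0.87 after siB3GNT3 (SE 0.08, limma adjusted p = 2.24e-05) and by 0.52 after siB4GALT5 (SE 0.07, limma adjusted p = 0.000203). The library set apart held 5.12 FPKM, inside the siNC range. With it in the fit neither call held: the adjusted p from limma was 0.168 for siB3GNT3, with a difference of 0.58, and 0.0768 for siB4GALT5, whose own libraries were unchanged. An antisense gene, named C5orf56 in GENCODE 29 and IRF1-AS1 in the expression table, covers 22.0% of the exonic bases of IRF1. IRF1-AS1 measured 5.94, 5.73 and 3.30 FPKM in Capan-1 siB3GNT3, against 2.60, 2.06 and 3.30 FPKM in Capan-1 siNC, and rose by 0.69 (SE 0.20, limma adjusted p = 0.0283). Its lowest knockdown library was also replicate 3. Without a stated strand setting, reads of the 2 genes cannot be told apart where they overlap. In AsPC-1 the IRF1-AS1 differences were 0.12 (SE 0.21, limma adjusted p = 0.662) after siB4GALT5 and 0.43 (SE 0.24, limma adjusted p = 0.156) after siB3GNT3, or 0.31 with the library set apart included (limma adjusted p = 0.355).

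IRF2, the antagonist of IRF1, was the scarcest tested member and moved less. It measured 3.38, 3.72 and 3.02 FPKM in AsPC-1 siB4GALT5, against 2.50, 2.43 and 2.27 FPKM in AsPC-1 siNC, and rose by 0.36 (SE 0.08, limma adjusted p = 0.00375). The groups did not overlap. In AsPC-1 siB3GNT3 it measured 2.74 and 3.00 FPKM, also above the siNC libraries, with a difference of 0.19 (SE 0.09, interval -0.01 to 0.39) that missed the threshold (limma adjusted p = 0.105). Scaling to a common sum brought that value to 0.25 with an adjusted p of 0.0348 from limma. The library set apart held 2.55 FPKM, and with it the siB3GNT3 difference was 0.14 (limma adjusted p = 0.289). In Capan-1 IRF2 measured 5.56, 5.27 and 5.03 FPKM after siB3GNT3, against 3.35, 3.40 and 3.07 FPKM after siNC, and rose by 0.56 (SE 0.08, limma adjusted p = 0.0016). The ratio of IRF1 to IRF2 was 2.34 ± 0.144 in AsPC-1 siB4GALT5 (SD, n = 3), 3.60 ± 0.287 in AsPC-1 siB3GNT3 (SD, n = 2) and 2.17 ± 0.264 in AsPC-1 siNC (SD, n = 3). The siB4GALT5 ratios of 2.19 to 2.47 overlapped the siNC ratios of 1.93 to 2.45, and the siB3GNT3 ratios of 3.40 and 3.81 lay above both. In Capan-1 the ratio ran from 4.02 to 6.88 after siB3GNT3 and from 3.16 to 3.83 after siNC.

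**Figure D3:**
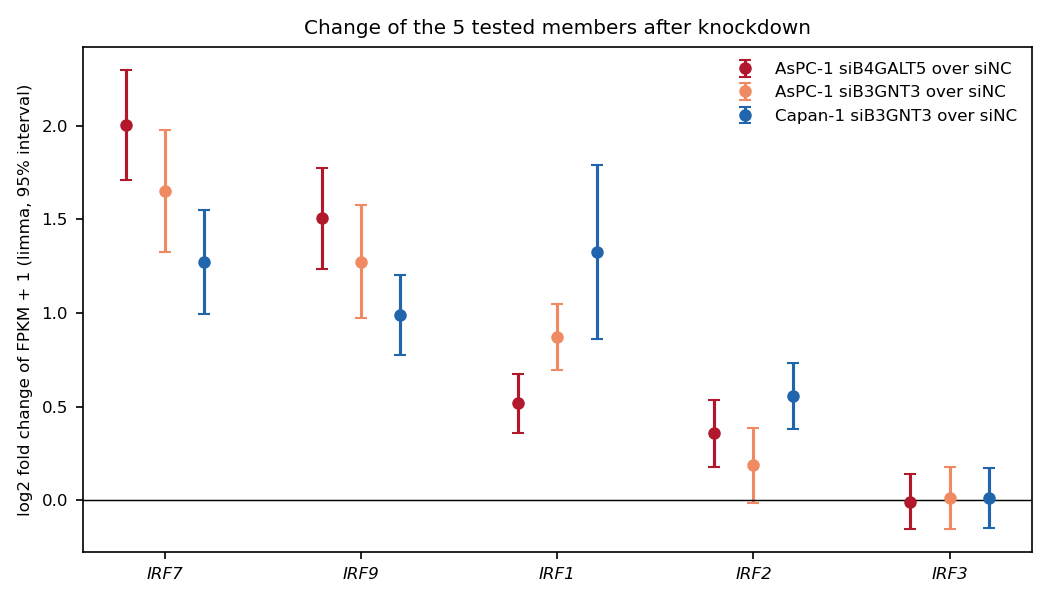
Log2 fold change of FPKM + 1 for the 5 tested members in the 3 knockdown comparisons, with 95% intervals from limma (y axis, log2 units). IRF7 runs from 2.00 to 1.65 to 1.27 over siB4GALT5 in AsPC-1, siB3GNT3 in AsPC-1 and siB3GNT3 in Capan-1, IRF1 runs from 0.52 to 0.87 to 1.33, and the 3 intervals of IRF3 include 0.

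IRF5, a factor downstream of Toll-like receptors, was close to the floor. It measured 0.0909, 0.0577 and 0.107 FPKM in AsPC-1 siB4GALT5, 0.145 and 0.0845 FPKM in AsPC-1 siB3GNT3 and 0.291, 0.300 and 0.252 FPKM in AsPC-1 siNC. Knockdown libraries of AsPC-1 were thus below all controls. The library set apart held 0.146 FPKM, outside the siNC range and next to a siB3GNT3 library, unlike its values for IRF1 and IRF9. In Capan-1 IRF5 measured 0.107, 0.178 and 0.153 FPKM after siB3GNT3, against 0.306, 0.239 and 0.207 FPKM after siNC. These groups did not overlap either. With no filter on low values and a pseudocount of 1, IRF5 differed by -0.24 after siB4GALT5 (limma adjusted p = 0.0014), by -0.20 after siB3GNT3 in AsPC-1 (limma adjusted p = 0.00522) and by -0.13 in Capan-1 (limma adjusted p = 0.105). Once the library set apart was included, the siB3GNT3 value in AsPC-1 was -0.19 and not called (limma adjusted p = 0.227). With a pseudocount of 0.1, chosen after seeing the data, the values were -1.05 (limma adjusted p = 0.00474), -0.84 (limma adjusted p = 0.0218) and -0.51 (limma adjusted p = 0.176). Read depth is not known from FPKM, so the precision of values this low cannot be given.

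IRF8, a factor of myeloid and B cells, was listed at 0 in all 9 AsPC-1 libraries. In Capan-1 it was listed at 0.148 and 0.0587 FPKM in siB3GNT3 replicates 1 and 3, at 0.0937 FPKM in siNC replicate 1 and at 0 in its other libraries. IRF4, a lymphocyte factor of the same family, was listed at 0 in AsPC-1 and reached 0.0759 FPKM in Capan-1.

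The make-up of the family's mRNA differed between the groups, while IRF3 itself was called in none of the 3 knockdown comparisons. Since FPKM is scaled per length, the levels can be added. The summed FPKM of the 7 genes was 103 ± 9.77 in AsPC-1 siB4GALT5 (SD, n = 3), 92.9 ± 5.60 in AsPC-1 siB3GNT3 (SD, n = 2) and 52.6 ± 2.96 in AsPC-1 siNC (SD, n = 3). It was 187 ± 17.6 in Capan-1 siB3GNT3 and 100.2 ± 5.38 in Capan-1 siNC (SD, n = 3 each). IRF3 made up 24.2% ± 1.77 of that sum in AsPC-1 siB4GALT5, 27.0% ± 0.494 in AsPC-1 siB3GNT3 and 47.4% ± 3.53 in AsPC-1 siNC. Its share was 14.3% ± 1.35 in Capan-1 siB3GNT3 and 26.5% ± 2.59 in Capan-1 siNC. The mean level of IRF3 was above that of IRF9 in AsPC-1 siNC and below it in the other 4 groups. The ratio of IRF7 to IRF3 was 0.891 ± 0.154 in AsPC-1 siB4GALT5, 0.672 ± 0.033 in AsPC-1 siB3GNT3 and 0.189 ± 0.025 in AsPC-1 siNC, with no overlap of siNC with the knockdowns. In Capan-1 it was 1.13 ± 0.108 after siB3GNT3 and 0.456 ± 0.090 after siNC.

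**Figure D4:**
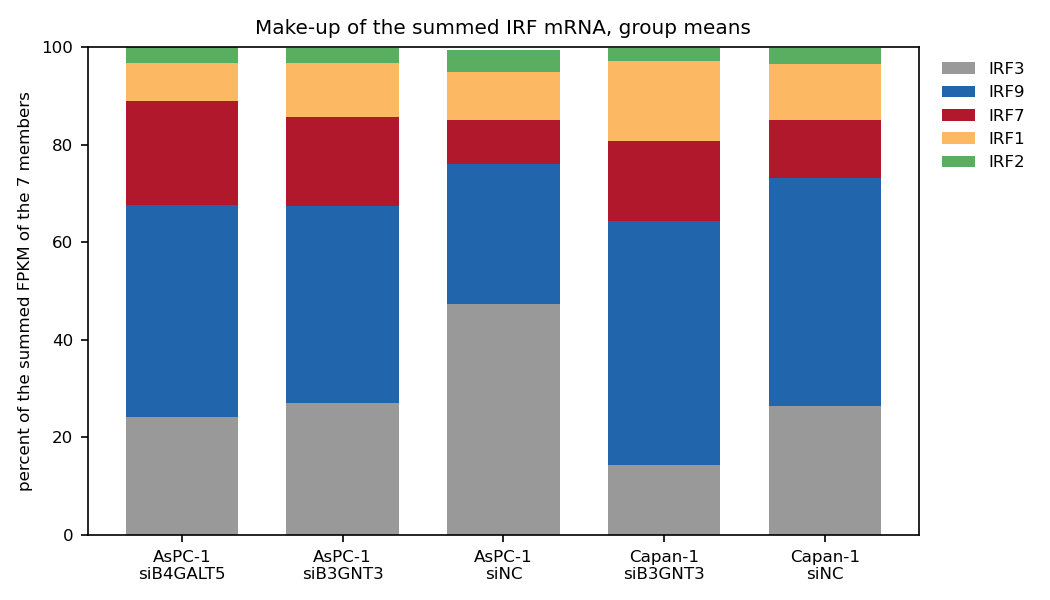
Percent of the summed FPKM of the 7 members taken by each of the 5 expressed ones, as group means (bars from 0; AsPC-1 siB3GNT3 from its 2 kept libraries). The grey IRF3 part is 24.2% in AsPC-1 siB4GALT5, 27.0% in AsPC-1 siB3GNT3, 47.4% in AsPC-1 siNC, 14.3% in Capan-1 siB3GNT3 and 26.5% in Capan-1 siNC.

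The siB4GALT5 and siB3GNT3 responses in AsPC-1 were compared directly. IRF1 was lower after siB4GALT5 than after siB3GNT3, by a log2 difference of -0.35 (SE 0.08, limma adjusted p = 0.00707), with 35.2% of 10775 genes called in this comparison in either direction. Its call was lost without siB3GNT3 replicate 1, where the value was -0.34 (limma adjusted p = 0.0567). IRF7 differed by 0.35 (SE 0.15, interval 0.03 to 0.68, limma adjusted p = 0.0882), and it was called at 0.51 without siB4GALT5 replicate 1 (limma adjusted p = 0.00836). IRF2 differed by 0.17 (SE 0.09, interval -0.03 to 0.37, limma adjusted p = 0.161), IRF9 by 0.23 (SE 0.13, interval -0.07 to 0.53, limma adjusted p = 0.212) and IRF3 by -0.02 (SE 0.07, interval -0.18 to 0.14, limma adjusted p = 0.86). IRF2 too was called, at 0.23, without siB4GALT5 replicate 3 (limma adjusted p = 0.0486). With the library set apart included no member was called in this comparison: IRF1 differed by -0.06 (limma adjusted p = 0.875), IRF7 by 0.86 (limma adjusted p = 0.135), IRF9 by 0.64 (limma adjusted p = 0.173) and IRF2 by 0.21 (limma adjusted p = 0.138).

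The siB3GNT3 response could be set between the lines through an interaction term in a fit of all 14 kept libraries. IRF2 responded less in AsPC-1 than in Capan-1, by a log2 difference of -0.37 (SE 0.11, interval -0.61 to -0.14, limma adjusted p = 0.0189), while 32.8% of 12236 genes were called for this term. Without AsPC-1 siB3GNT3 replicate 1 the value was -0.32 and missed the threshold (limma adjusted p = 0.0888). For IRF1 the difference was -0.45 (SE 0.24, interval -0.98 to 0.07, limma adjusted p = 0.175), and without Capan-1 siB3GNT3 replicate 3 it was -0.72 and called (limma adjusted p = 0.000179). IRF7 and IRF9 pointed the other way, at 0.38 (SE 0.21, interval -0.07 to 0.82, limma adjusted p = 0.18) and 0.28 (SE 0.18, interval -0.10 to 0.67, limma adjusted p = 0.24), and neither was called. With the library set apart included their values were -0.13 and -0.12.

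The lines differed before any knockdown. AsPC-1 siNC libraries held less than Capan-1 siNC libraries of IRF9, by a log2 difference of -1.58 (SE 0.12, limma adjusted p = 1.87e-08), of IRF7, by -1.18 (SE 0.14, limma adjusted p = 2.27e-06), and of IRF1, by -1.001 (SE 0.16, limma adjusted p = 6.14e-05). IRF2 was lower by a smaller amount, -0.33 (SE 0.07, limma adjusted p = 0.000919). Of all genes 78.1% were called between the lines in either direction. IRF3 differed by -0.08 (SE 0.07, limma adjusted p = 0.269), and by -0.24 with a limma adjusted p of 0.0032 when libraries were scaled to a common sum, which moved the median of all genes to -0.23 from -0.09. In the order of group means, Capan-1 siB3GNT3 came first for IRF1, IRF2, IRF7 and IRF9, without overlap with the next group, and AsPC-1 siNC came last for these 4 genes. For IRF9 the next places, those of Capan-1 siNC at 46.8 ± 4.39 FPKM and AsPC-1 siB4GALT5 at 44.4 ± 4.13 FPKM, overlapped (SD, n = 3 each). For IRF7 no neighbouring groups overlapped.

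Genes around the family were described through lists of pathway members. The shares of all genes called are the background for each count: 35.2% higher and 23.0% lower after siB4GALT5 in AsPC-1, 32.5% and 20.4% after siB3GNT3 in AsPC-1, and 18.7% and 14.2% in Capan-1. Among 12 kinases and adaptors that activate IRFs, 6 rose and 0 fell after siB4GALT5 in AsPC-1, 5 rose and 3 fell after siB3GNT3 in AsPC-1, and 2 rose and 1 fell of 11 tested in Capan-1. The list's median log2 differences were 0.12, 0.09 and 0.05, beside 0.06, 0.07 and 0.02 over all genes. The siB3GNT3 counts of this list in both lines lay near those shares. Among the 12, 3 were called higher after siB4GALT5 with the library set apart included, and TRAF3 (limma adjusted p = 0.0611) and IKBKE (limma adjusted p = 0.0564) no longer were. TICAM1, the adaptor of Toll-like receptor 3, averaged 11.0 ± 0.409 FPKM in AsPC-1 siB4GALT5 and 6.95 ± 0.656 FPKM in AsPC-1 siNC (SD, n = 3 each) and rose by 0.60 (limma adjusted p = 9.31e-05). TRAF3, a ubiquitin ligase upstream of TBK1, rose by 0.60 (limma adjusted p = 0.000101). TRAF6, which serves the MYD88 branch, rose by 0.56 (limma adjusted p = 0.000394) and IKBKE, the kinase IKKε, by 0.30 (limma adjusted p = 0.00247). After siB3GNT3 in AsPC-1 these 4 genes rose by 0.83, 0.92, 0.41 and 0.38. The 3 that fell there, named after their values were seen, were STING1, IRAK4 and MAVS. They differed by -0.47 (limma adjusted p = 0.000469), -0.33 (limma adjusted p = 0.0136) and -0.26 (limma adjusted p = 0.0466). In Capan-1 IKBKE rose by 0.63 (limma adjusted p = 0.00248), TICAM1 and TRAF3 were not called at 0.20 and 0.25, and TRAF6 was under the filter.

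Among 10 tested receptor and ISGF3 genes, 3 rose and 2 fell after siB4GALT5, and 5 rose and 0 fell after siB3GNT3 in each line. The siB4GALT5 count was near the shares over all genes, and the siB3GNT3 counts of genes that rose were above them. The median log2 differences were -0.03, 0.20 and 0.18, beside 0.06, 0.07 and 0.02 over all genes. After siB4GALT5 2 rose and 1 fell with the library set apart included. IFNGR2, a chain of the interferon γ receptor, rose by 0.46 (limma adjusted p = 0.000353) after siB4GALT5 and by 0.99 (limma adjusted p = 9.8e-06) after siB3GNT3 in AsPC-1, and it was not called at 0.17 in Capan-1 (limma adjusted p = 0.164). Its siB4GALT5 call did not hold with the library set apart included (limma adjusted p = 0.108). IL10RB, a chain of the interferon λ receptor, fell by 0.73 after siB4GALT5 (limma adjusted p = 0.00338) and was not called after siB3GNT3, at -0.18 in AsPC-1 (limma adjusted p = 0.425) and 0.01 in Capan-1 (limma adjusted p = 0.928).

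Of 12 tested negative regulators and corepressors of IRFs, 10 rose and 1 fell after siB4GALT5, 9 rose and 1 fell after siB3GNT3 in AsPC-1, and 8 rose and 1 fell in Capan-1, against 35.2%, 32.5% and 18.7% of all genes called higher. The median log2 differences were 0.61, 0.43 and 0.66, beside 0.06, 0.07 and 0.02 over all genes. After siB4GALT5 9 rose and 1 fell with the library set apart included. RBCK1, a subunit of the linear ubiquitin ligase also known as HOIL-1, averaged 75.0 ± 5.65 FPKM in AsPC-1 siB4GALT5 and 29.2 ± 1.25 FPKM in AsPC-1 siNC (SD, n = 3 each) and rose by 1.33 (limma adjusted p = 5.02e-07). USP18, which removes ISG15 and blocks the type I interferon receptor, rose by 1.97 (limma adjusted p = 3.31e-06). TNFAIP3, the NF-kB inhibitor A20, rose by 0.75 (limma adjusted p = 1.88e-05). OTUD1, a deubiquitinase, averaged 5.37 ± 0.985 FPKM in AsPC-1 siB4GALT5 and 0.515 ± 0.111 FPKM in AsPC-1 siNC (SD, n = 3 each), a difference of 2.06 (limma adjusted p = 1.19e-06), and it passed the filter in AsPC-1 only through its knockdown libraries. In Capan-1, where it was above 1 FPKM in both groups, OTUD1 averaged 39.7 ± 10.9 FPKM after siB3GNT3 and 11.4 ± 0.583 FPKM after siNC (SD, n = 3 each) and rose by 1.68 (limma adjusted p = 0.000613).

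Textbook targets of ISGF3 and IRF3 had the largest medians of the 5 pathway lists in each comparison. All 12 tested rose after siB4GALT5 and after siB3GNT3 in AsPC-1, and 11 of 13 tested rose in Capan-1, with none falling and medians of 2.49, 1.88 and 1.10, beside 0.06, 0.07 and 0.02 over all genes. The shares of all genes called higher were 35.2%, 32.5% and 18.7%. The filter passed 12 or 13 of 16 listed genes, and it favours a difference in genes that pass only through the group where they are high. In AsPC-1 IFNL1, counted among the 12, passed only through its knockdown libraries, so its calls there are no support. Not called in Capan-1 were CCL5, a chemokine, at 5.37 ± 0.981 FPKM after siB3GNT3 and 5.78 ± 1.08 FPKM after siNC, and OASL, at 17.0 ± 2.37 FPKM after siB3GNT3 and 18.1 ± 0.250 FPKM after siNC (SD, n = 3 each). CCL5 stood at 15.8 ± 1.27 FPKM in AsPC-1 siB4GALT5, 11.3 ± 0.782 FPKM in AsPC-1 siB3GNT3 and 2.29 ± 0.215 FPKM in AsPC-1 siNC. IFIT1, IFIT2 and IFIT3, which bind foreign RNA or its partners, rose by 2.54, 3.09 and 2.52 after siB4GALT5, with limma adjusted p values of 1.78e-07, 1.81e-07 and 1.81e-07. IFNB1, the interferon β gene that IRF3 and IRF7 activate, was under the filter, with 0.255 ± 0.176 FPKM in AsPC-1 siB4GALT5, 0.136 ± 0.148 FPKM in AsPC-1 siB3GNT3 and 0.0503 ± 0.0625 FPKM in AsPC-1 siNC. IFNL1, an interferon λ gene, averaged 7.69 ± 2.43 FPKM in AsPC-1 siB4GALT5, 4.02 ± 0.160 FPKM in AsPC-1 siB3GNT3 and 0.152 ± 0.114 FPKM in AsPC-1 siNC, and 0.254 ± 0.117 FPKM in Capan-1 siB3GNT3 and 0.109 ± 0.101 FPKM in Capan-1 siNC. IFNB1, IFNL1 and OASL were named after their values were seen.

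Of 9 tested textbook IRF1 targets, 4 rose and 1 fell after siB4GALT5 and 3 rose and 0 fell after siB3GNT3 in AsPC-1, against 35.2% and 32.5% of all genes called higher, and the siB3GNT3 count was near that share. In Capan-1 8 of 13 tested rose and 0 fell, against 18.7% of all genes called higher. The medians were 0.30, 0.23 and 0.57, beside 0.06, 0.07 and 0.02 over all genes. The genes tested were not the same in the lines, and the difference between the lines was not tested for the list. TAP1, a peptide transporter of antigen presentation, averaged 36.1 ± 3.33 FPKM in AsPC-1 siB4GALT5 and 19.1 ± 1.45 FPKM in AsPC-1 siNC (SD, n = 3 each) and rose by 0.88 (limma adjusted p = 1.65e-05). The immunoproteasome subunit gene PSMB8 rose by 0.52 (limma adjusted p = 6.61e-05). Another subunit gene, PSMB10, fell by 0.41 (limma adjusted p = 0.00111).

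Across the 14 kept libraries, with log2(FPKM + 1) centred within each line, IRF7 and IRF9 had a Pearson r of 0.98. IRF1 had 0.75 with IRF7, 0.78 with IRF9 and 0.85 with IRF2, and IRF3 had 0.02 to 0.17 with the other 4. These correlations describe libraries that share groups and normalisation and carry no p. Of 12235 other genes, those most like IRF7 were DDX60L (0.99), USP18 (0.99) and OAS2 (0.99), and those most like IRF9 were DDX60L (0.98), IRF7 (0.98) and LOC102724428 (0.98). IRF1 was most like ZC3H12A (0.99), FOSL2 (0.99) and PSPH (0.98), and IRF2 most like ATN1 (0.98), NLRC5 (0.97) and SLC25A28 (0.97). For IRF3 the highest values were 0.79 for IPO13, 0.78 for PRDX5 and 0.75 for LINC02323. At r above 0.9 there were 481 genes for IRF7, 512 for IRF9, 210 for IRF1, 110 for IRF2 and 0 for IRF3.

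In GENCODE 29 coordinates on GRCh38, the members are protein-coding genes on 7 chromosomes. IRF1 lies at chr5:132481609-132490798, IRF2 at chr4:184387713-184474580, IRF3 at chr19:49659569-49665875 and IRF7 at chr11:612553-615999, all on the minus strand. IRF5 at chr7:128937612-128950035, IRF8 at chr16:85898803-85922609 and IRF9 at chr14:24161053-24166565 lie on the plus strand.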

How the data were processed

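The authors deposited 1 table of FPKM per gene for 15 RNA-seq libraries in 5 groups of 3. Per the submitters' processing notes, Bowtie2, RSEM 1.3.1, DESeq2 1.4.5 and the build GRCh38 were used, with no step tied to a tool. FPKM divide by transcript length and library total, so a few abundant genes can shift the rest, and read depth is unknown. FPKM were used as deposited, as log2(FPKM + 1), which understates changes of low genes. The test was limma 3.58.1 (R 4.3.3, variance trend on level), applied to genes at 1 FPKM or more in at least 3 libraries of a fit. The AsPC-1 fit used 8 libraries, the Capan-1 fit 6, and the fit for line differences 14. P-values were adjusted by Benjamini-Hochberg over all genes tested. The procedure was run on simulated libraries drawn with the siNC spread, in which a limited set of genes was raised. In the real data far more genes were called and some knockdown groups varied more, and that setting was not simulated. Groups follow the labels, and the Capan-1 cell line field is misspelled there. Alternatives were the labelled replicates, pseudocount, filters, scalings, trend, a replicate block and leaving out each library. Members, lists and tests were chosen with earlier results of these data known. Named genes were all members, both targets, IRF4, the 3 genes most like each tested member, and up to 4 genes per list with the smallest p after siB4GALT5. Some others were named after their values were seen. Loci and overlaps come from GENCODE 29, promoters from RefSeq (GRCh38.p14). Some genes of the lists are not reported here.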

Additional observations from a re-analysis of the deposited data

Results flagged for a closer look

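The response of IRF2 to siB3GNT3 differed between the lines in a test of the difference itself. The log2 response in AsPC-1 minus that in Capan-1 was -0.37 (SE 0.11, limma adjusted p = 0.0189). IRF2 measured 2.74 and 3.00 FPKM in the kept AsPC-1 siB3GNT3 libraries, against 2.50, 2.43 and 2.27 FPKM in AsPC-1 siNC. In Capan-1 the siB3GNT3 libraries held 5.56, 5.27 and 5.03 FPKM, against 3.35, 3.40 and 3.07 FPKM in Capan-1 siNC. It was higher in all knockdown libraries of both lines than in their controls. The adjusted p from limma ranged from 0.0103 to 0.0888 over 22 alternatives.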

How the results depend on the processing

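Of 542 recomputed log2 differences of the 5 tested members, 507 kept their direction and their side of the threshold, 5 came past it, 7 no longer passed it and 23 changed sign, of which 21 were IRF3. With all AsPC-1 libraries as labelled, the members called numbered 0 for siB3GNT3 over siNC and 0 for siB4GALT5 over siB3GNT3. The siB3GNT3 response in AsPC-1 minus that in Capan-1, named response difference below, was then -0.13 for IRF7 and -0.12 for IRF9. IRF3 was -0.013 for siB3GNT3 and 0.0053 between the knockdowns. The genes called were then 0 against 5697 for siB3GNT3, 1716 against 3789 between the knockdowns and 1204 against 4009 for the response difference. Median-ratio scaling gave IRF3 -0.093 (AsPC-1 siB3GNT3), -0.035 (Capan-1) and 0.0025 (between knockdowns), and common-sum scaling gave it 0.077 (siB4GALT5) and 0.047 (response difference). The replicate block gave IRF3 -0.015 for siB3GNT3 in AsPC-1 and 0.0064 between the knockdowns, changed no count of members called, and moved the genes called to 6285 from 6271 (siB4GALT5), 5470 from 5697 (siB3GNT3, AsPC-1) and 3311 from 3786 (Capan-1). Deviations of same-numbered libraries from their group means had correlations of -0.04 to 0.06, and those of differently numbered ones -0.14 to 0.11. For siB4GALT5 against siNC the same-numbered values were 0.03, 0.06 and 0.04, and the others were -0.04 to -0.001. Values this small over so few libraries cannot decide whether libraries were paired, and pairing by the numbers in the library names was not tested. Leaving out 1 library at a time changed the members called, to at most 2 between the knockdowns and at most 2 for the response difference. IRF3 ranged from -0.060 to 0.033 (siB4GALT5), -0.066 to 0.089 (siB3GNT3, AsPC-1), -0.037 to 0.060 (Capan-1), -0.097 to 0.058 (between knockdowns) and -0.077 to 0.077 (response difference). Genes called in Capan-1 were 2069, 2083 and 2112 without siNC replicate 1, 2 or 3 and 5715 without siB3GNT3 replicate 3. Between the knockdowns they were 2134 and 2190 without siB3GNT3 replicate 1 or 2. Where an arm had 1 library left, it was assumed to vary like the other groups. Median-ratio scaling split the calls for the response difference into 1912 higher and 2154 lower, against 2319 and 1690. The cause of these changes was not tested. FPKM carry no read counts, so the precision of IRF5 and IRF8 at their low levels is unknown.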
